A study of Homo sapiens with 2 samples.

Results

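Of the 6754 crosslink sites listed for SRSF1 in H1299 cells, 542 were mutation sites at which every covering tag carried the mutation. They made up 26.8% of the 2023 mutation sites and 8.02% of the list. The name of a mutation site carries the values k and m. They are read here as the number of tags that cover the site (k) and the number mutated there (m), after the naming of the CTK toolkit; the labels do not state their meaning. On this reading the 542 fully mutated sites are those with m equal to k. The other rows are 1481 partly mutated sites, with m below k, and 4731 truncation sites. The series holds 2 replicates of 1 group: H1299 cells crosslinked with ultraviolet light and taken through SRSF1 HITS-CLIP. H1299 is an established line derived from a human lung cancer of the non-small cell type. The labels name no genotype change, treatment, time point or control library. The authors deposited both replicates as 1 combined list, so no value below has a replicate check, and whether the tags of a site came from 1 replicate or from both is not given. The sites were chosen by k and m, so their depth is described without a test; only position, strand and distance to other rows were tested.

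SRSF1 is an SR-family protein that binds purine-rich RNA, mostly in exons, and takes part in splice site choice, RNA export and translation. In HITS-CLIP, ultraviolet light joins the protein to RNA that it touches, and the bound RNA is trimmed to short fragments, which are copied into DNA and sequenced as tags. The amino acids left on the crosslinked base can halt the copying enzyme, which is read as a truncation site, or lead it to skip or misread that base, which is read as a mutation site. Crosslinked bases are usually read through correctly by some tags, so a mutated share below the whole is common at such bases. A base at which the cells differ from the reference genome also appears as a change in the tags, and no genotype of the line was used here, so this was not tested. No sequence of the hg19 build was used, and the kind of change at each site is not given in the list.

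Most fully mutated sites were covered by very few tags. Of the 542 sites, 462 (85.2%) were covered by 2 tags, 46 by 3 tags, 17 by 4 tags, 9 by 5 tags, 3 by 6 tags, 2 by 7 tags, 2 by 8 tags and 1 by 12 tags. No site covered by 9 tags was fully mutated. All 542 intervals were 21 nt long. The fully mutated sites held 1235 of the 27989 covering tags summed over mutation sites (4.41%), and 20.9% of the 5923 mutated tags. No listed mutation site has under 2 mutated tags, so a site covered by 2 tags could be listed only if it was fully mutated. The 462 sites at 2 tags therefore have no partly mutated counterpart, and comparisons at equal depth rest on the 79 sites covered by 3 to 8 tags.

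At each depth from 3 tags upward, full mutation was the less frequent state. It held for 16.0% of the 288 sites covered by 3 tags (exact Clopper-Pearson 95% interval 11.9 to 20.7%), 7.17% of 237 at 4 tags, 4.64% of 194 at 5 tags, 2.21% of 136 at 6 tags, 1.52% of 132 at 7 tags and 2.00% of 100 at 8 tags. From 10 covering tags upward it held for 1 of 387 sites. These are shares of listed sites, not of all covered bases. The fewest mutated tags at a listed site were 2 at depths of 3 to 9 tags and 3 at 10 to 12 tags. Just outside the limit, sites with all tags but 1 mutated numbered 242 at 3 tags, 34 at 4 tags, 9 at 5 tags, 0 at 6 tags, 2 at 7 tags and 0 at 8 tags. At 5, 6, 7 and 8 tags, the fully mutated sites (9, 3, 2 and 2) were thus at least as many as those just outside, although most sites at these depths had 2 mutated tags (158, 102, 100 and 73). The partly mutated sites nearest to full mutation at 10 or more tags had 31 of 34 tags mutated (chromosome 6 plus strand, 31803054 to 31803074) and 26 of 30 (chromosome 15 minus strand, 75614172 to 75614192).

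**Figure D1:**
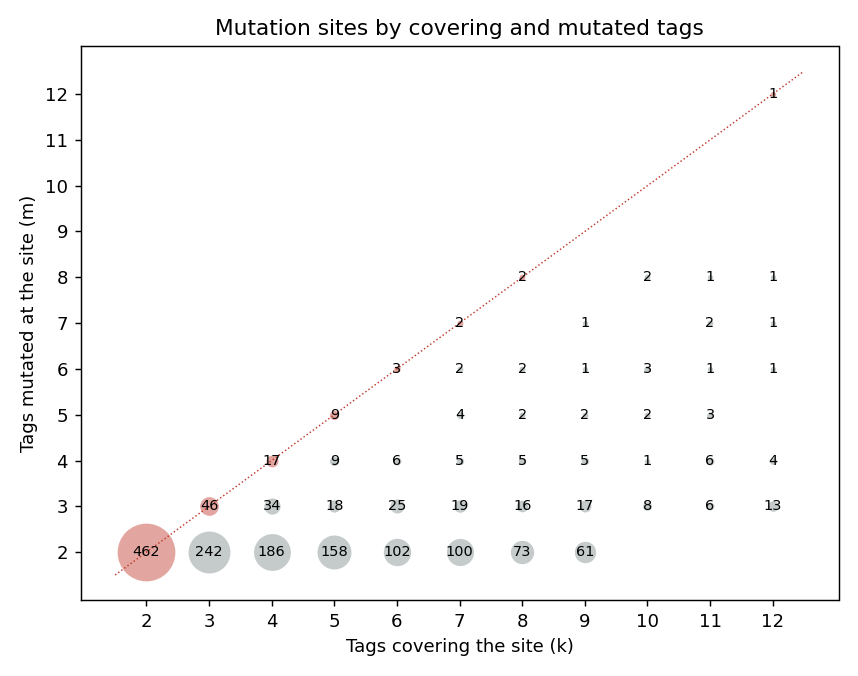
Number of mutation sites at each combination of covering tags (x axis, 2 to 12) and mutated tags (y axis); each number is a count of sites, circle area grows with it, and red circles on the dotted diagonal are fully mutated sites. The diagonal falls from 462 sites at 2 tags to 2 sites at 8 tags, with 1 site at 12 tags, and the row of 2 mutated tags ends at 9 covering tags.

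The 3 deepest fully mutated sites differed widely in their distance to other rows on their strand. Over all 542 fully mutated sites the median distance to the nearest row on the strand was 121 kb. The site with the most tags lay on chromosome 19 minus strand (13472818 to 13472838, hg19), with 12 of 12 tags mutated. Its nearest row of either kind on that strand was 30.7 kb away, nearer than this median. Sites with 8 of 8 tags lay on chromosome 3 plus strand (102757540 to 102757560) and chromosome 18 minus strand (29589582 to 29589602). Their nearest rows on the same strand were 1464 kb and 4100 kb away. A row on the opposite strand was nearer to the chromosome 18 site, at 506863 nt. These 3 sites were thus the only rows in their surroundings on that strand, over at least 30 kb to either side.

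Sites with 7 of 7 tags both lay on chromosome 8, on the plus strand at 1716598 to 1716618, with the nearest row at 103.6 kb, and on the minus strand at 5325324 to 5325344, with the nearest row at 6372 kb. In this paragraph the nearest row is that on the same strand. Among the sites named here, an opposite-strand row was nearer to the chromosome 8 minus-strand site, at about 3505130 nt. The same held for the chromosome 2 plus-strand site at 97414646, at 90407 nt. Of the 3 sites with 6 of 6 tags, those on chromosome 2 plus strand (97414646 to 97414666) and minus strand (122074617 to 122074637) had their nearest rows at 189 kb and 48.3 kb. The row nearest to the minus-strand site was itself fully mutated, with 2 tags. The other site with 6 of 6 tags, on chromosome 4 minus strand (9776388 to 9776408), differed from these: a truncation site with 10 tags lay 43 nt away and a partly mutated site with 5 of 29 tags lay 64 nt away. A further 9 sites were tied at 5 of 5 tags. The first 2 of them in chromosome order, an arbitrary choice among the ties, lay on chromosome 2 minus strand (33675856 to 33675876) and plus strand (176599011 to 176599031), with nearest rows at 534 kb and 241 kb. Over all 17 sites covered by 5 or more tags, the median distance to the nearest row was 241 kb, with a range from 0.043 to 6372 kb.

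Fully mutated sites did not lie close to each other. No fully mutated site had another within 1000 nt on its strand (0 of 542), and merging those within 50 nt of each other left 542. The closest pairs were on chromosome 5 minus strand, 2124 nt apart (6600489 to 6600509 and 6602613 to 6602633), and on chromosome 11 plus strand, 2160 nt apart (65730258 to 65730278 and 65732418 to 65732438). In all, 6 pairs lay within 10 kb, and all 12 sites in them were covered by 2 tags. The other pairs were 4729 nt apart on chromosome 11 plus strand, 5335 nt on chromosome 12 minus strand, 6085 nt on chromosome 5 minus strand and 8346 nt on chromosome 9 plus strand. The median distance to the nearest other fully mutated site was 2511 kb (quartiles 659 and 7730 kb).

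Partly mutated sites of equal depth were seldom close to a fully mutated site either. Within 1000 nt of a fully mutated site lay 0 of the 79 fully mutated sites covered by 3 to 9 tags (95% interval 0 to 4.56%) and 3 of the 1095 partly mutated ones (0.274%). Sites were compared within strata of equal k by an exact two-sided Cochran-Mantel-Haenszel test, with sites as units, and the 5 comparisons planned were adjusted together by Benjamini-Hochberg. The exact test gave an odds ratio of 0 (95% interval 0 to 31.7, p = 1, adjusted p = 1). With so few neighbours in either group the interval is wide, and a difference was not detectable in this list. Within 10 kb the numbers were 0 of 79 and 45 of 1095 (exact p = 0.0609).

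Most fully mutated sites stood alone. Rows of either kind were grouped into a locus where neighbours on a strand were up to 1000 nt apart. Each of the 542 sites fell in a locus of its own among fully mutated sites, and 520 (95.9%) were the only row of their locus. With gaps up to 10 kb, 437 (80.6%) were still alone. These shares rest mostly on the 462 sites covered by 2 tags, of which 445 and 369 were alone. Of the 242 partly mutated sites covered by 3 tags, 213 and 172 were alone. The 10 loci with the most sites held 276 rows, with 0 fully mutated sites among 56 mutation sites. Of these 56, 48 were covered by 10 or more tags, a depth at which 1 of 387 mutation sites in the list was fully mutated.

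At equal depth, standing alone within 1000 nt was more frequent among fully mutated sites, but the difference did not pass the test after adjustment. Of the 79 sites covered by 3 to 8 tags, 74 were alone (93.7%, 85.8 to 97.9%), against 75.5% of 1095 partly mutated sites, or 83.8% of them when weighted to the depths of the fully mutated sites. The odds ratio was 2.98 (1.17 to 9.71, exact p = 0.0182, adjusted p = 0.0912). With gaps up to 10 kb, 67 of the 79 were alone, against 66.2% of the weighted partly mutated sites, and the difference passed (odds ratio 2.96, 1.54 to 6.15, exact test, adjusted p = 0.00215). Being alone at this gap is the same as having no row within 10 kb on the strand. The remaining 12 sites had such a row, for 10 of them a truncation site. The result is thus not separate from the window comparisons below, over whose 46 tests its adjusted p was 0.00329 (exact test). At 3 covering tags taken alone it did not (odds ratio 1.67, 0.742 to 4.15, exact p = 0.212, adjusted p = 0.530), and at 4 to 9 tags it did (6.92, 2.11 to 35.9, adjusted p = 0.000712, exact test). The split by depth at this gap was chosen after the data were seen. The adjusted p-values of its parts count only a family of 5 comparisons, not the other settings tried. Whether these depths differ from each other was not tested.

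The 22 fully mutated sites that shared a locus had 39 other rows beside them, 31 truncation sites (79.5%) and 8 partly mutated sites. Truncation sites make up 76.2% of the 6212 rows that are not fully mutated, so this share was near that of the list. The largest such loci held 6 rows each and were chosen here after their values were seen. On chromosome 1 minus strand (108113126 to 108113605), 5 truncation sites surrounded a site with 3 of 3 tags mutated, the nearest of them 12 nt away with 11 tags. On chromosome X plus strand (149112692 to 149113391), 4 truncation sites and a partly mutated site with 6 of 13 tags accompanied a site with 2 of 2 tags. Each of these loci held a single fully mutated site.

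Close to truncation sites, fully and partly mutated sites of equal depth gave similar counts. A truncation site lay within 50 nt on the same strand of 3 of the 79 fully mutated sites (3.80%, 0.790 to 10.7%) and of 87 of 1095 partly mutated sites (7.95%). Weighted to the same depths, the partly mutated share was 3.72%, which corresponds to 2.94 of 79 sites. The odds ratio was 0.982 (0.185 to 3.34, exact p = 1, adjusted p = 1), an interval that leaves room for differences of several fold in both directions. Including those covered by 2 tags, 5 of the 542 fully mutated sites were this close.

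These 5 sites each lay at a truncation site or on its 5′ side. On chromosome 12 minus strand (39745608 to 39745628), a site with 2 of 2 tags mutated had the identical interval as a truncation site with 6 tags, the only such coincidence. The others lay 12 nt 5′ on chromosome 1 minus strand (108113481 to 108113501, 3 of 3 tags), 18 nt 5′ on chromosome 13 plus strand (48338622 to 48338642, 3 of 3 tags), 39 nt 5′ on chromosome 5 minus strand (176872853 to 176872873, 2 of 2 tags) and 43 nt 5′ at the chromosome 4 site with 6 of 6 tags. The truncation sites next to these 4 had 9 to 11 tags. Within 100 nt there were 6 such sites, and the added one, on chromosome X plus strand (149113040 to 149113060, 2 of 2 tags), lay 71 nt away on the 3′ side. The side was not compared with that of partly mutated sites, and whether it moves with depth was not tested.

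Another mutation site lay within 50 nt of 0 of the 79 fully mutated sites (95% interval 0 to 4.56%) and of 22 of the 1095 partly mutated sites (2.01%, or 0.999% at equal depth). The odds ratio was 0 (0 to 5.69, exact p = 1, adjusted p = 1). Among sites covered by 2 tags, 2 of 462 had such a neighbour: 29 nt away on chromosome 11 plus strand (122027441 to 122027461), where 2 of 8 tags were mutated, and 45 nt away on chromosome X plus strand (149113040 to 149113060).

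Farther out, a smaller share of fully mutated sites than of partly mutated sites of equal depth had a truncation site within a given window. These wider windows were chosen after the data were seen, and their p-values were adjusted over 46 tests (12 windows and 4 kinds of neighbour, of which 2 gave no neighbour at all). Within 1 kb lay a truncation site for 4 of 79 fully mutated sites (5.06%), against 14.1% of partly mutated sites weighted to equal depth, a difference that did not pass after adjustment (odds ratio 0.314, 0.0812 to 0.873, exact test, adjusted p = 0.0582). Within 10 kb the shares were 12.7% (6.24 to 22.0%) and 27.7% (odds ratio 0.364, 0.163 to 0.734, exact test, adjusted p = 0.0100). Within 50 kb they were 16.5% (9.06 to 26.5%) and 43.2% (odds ratio 0.251, 0.124 to 0.471, exact test, adjusted p = 5.42e-05). Within 100 kb they were 26.6% (17.3 to 37.7%) and 50.5% (odds ratio 0.342, 0.192 to 0.589, exact test, adjusted p = 0.000538). Within 1000 kb they were 69.6% and 84.1% (odds ratio 0.423, 0.244 to 0.752, exact test, adjusted p = 0.0100). The windows are nested, and each wider one counts again the sites with a neighbour in the narrower ones. They are therefore not separate evidence at each distance. The difference held for 100 kb when 1 site was kept per locus joined over gaps up to 100 kb (odds ratio 0.290, 14 of 68 against 466 of 906 sites). It did not pass at 3 covering tags alone (0.563, 0.268 to 1.14, exact p = 0.105).

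**Figure D2:**
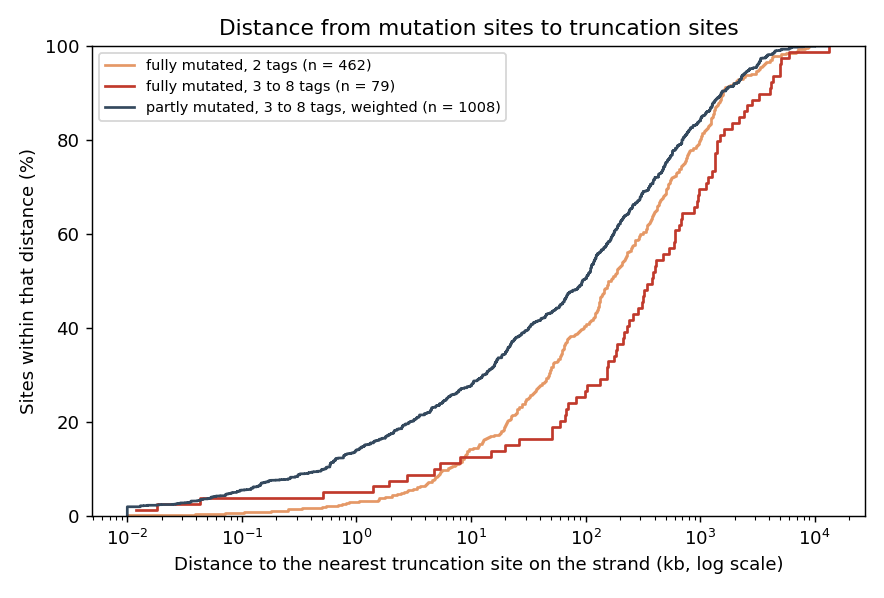
Share of sites (y axis, percent) with a truncation site on their strand within the distance on the x axis (kb, log scale; distances under 0.01 kb are drawn at 0.01), for fully mutated sites covered by 3 to 8 tags (red), partly mutated sites of the same depths weighted to the fully mutated ones (dark blue) and fully mutated sites covered by 2 tags (orange). The red line lies below the dark blue line from 0.1 to 1000 kb, with 26.6% against 50.5% at 100 kb.

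The median distance from the 79 sites to the nearest truncation site was 380 kb, against a weighted median of 94.5 kb for partly mutated sites of 3 to 8 tags. The order was the same at each depth. At 3 tags the medians were 298 kb for fully and 113 kb for partly mutated sites, at 4 tags 474 and 75.7 kb, at 5 tags 652 and 67.0 kb, and at 6 tags 189 and 15.5 kb. Only 3 sites stand behind the value at 6 tags, and 2 each behind those at 7 tags (6769 against 12.9 kb) and 8 tags (3256 against 15.6 kb). Partly mutated sites covered by 6 to 8 tags lay nearer to truncation sites than those covered by 3 to 5, while no such order appeared among the fully mutated ones.

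For other mutation sites as neighbours the odds ratios lay under 1 as well, but in none of the 12 windows did the difference pass after adjustment. Within 10 kb, 5 of 79 fully mutated sites had another mutation site, against 16.0% of partly mutated sites at equal depth (odds ratio 0.350, 0.108 to 0.886, exact test, adjusted p = 0.0582). Within 100 kb the shares were 26.6% and 32.3% (odds ratio 0.741, 0.415 to 1.28, exact test, adjusted p = 0.520). Whether truncation and mutation neighbours differ in this respect was not tested. A row on the opposite strand within 10 kb was found for 0 of 79 fully and 27 of 1095 partly mutated sites (exact p = 0.388).

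**Figure D3:**
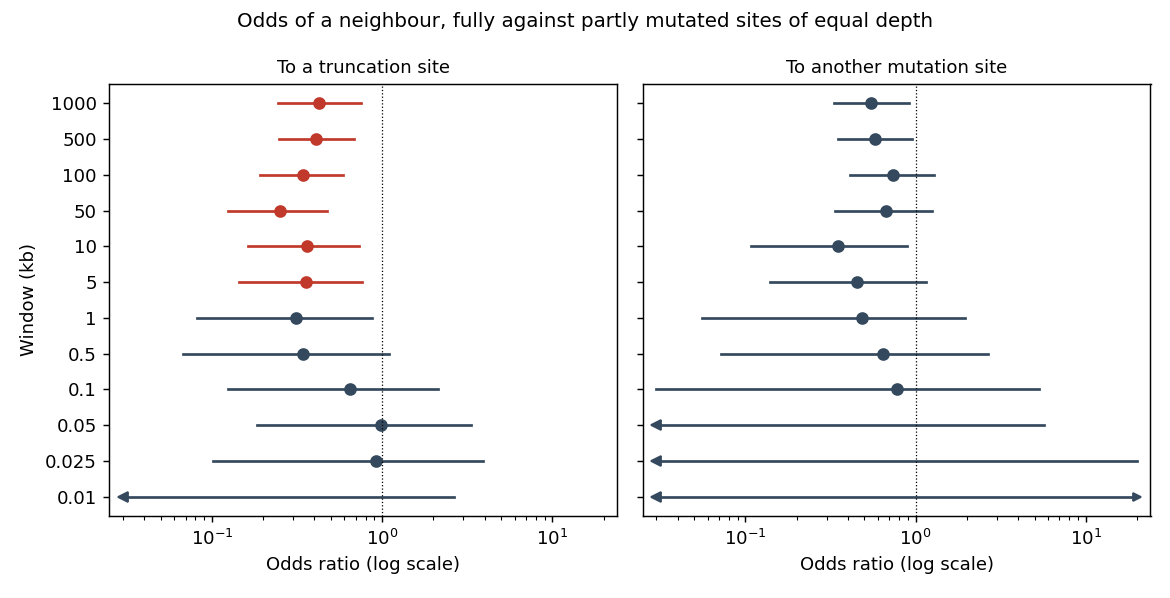
Odds ratios (x axis, log scale) of having a truncation site (left) or another mutation site (right) within each window (y axis, kb), for fully against partly mutated sites of equal depth; lines are exact 95% intervals, left arrowheads mark odds ratios of 0 or intervals reaching 0, and red marks an adjusted p under 0.05 over 46 tests. For truncation sites the windows from 5 to 1000 kb are red, with odds ratios from 0.251 to 0.423, and no window is red for other mutation sites. The windows are nested and not independent of each other.

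Sites covered by 4 tags allow the number of mutated tags to be followed at 1 depth. The median distance to the nearest truncation site was 59.5 kb for the 186 sites with 2 mutated tags, 112 kb for the 34 with 3 and 474 kb for the 17 with 4. A truncation site lay within 10 kb of 33.3% (26.6 to 40.6%), 17.6% (6.76 to 34.5%) and 11.8% (1.46 to 36.4%) of these sites. Within 100 kb the shares were 53.8% (46.3 to 61.1%), 50% (32.4 to 67.6%) and 23.5% (6.81 to 49.9%). The medians rose with each further mutated tag, but the intervals of neighbouring classes overlap and no test of this order was made.

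**Figure D4:**
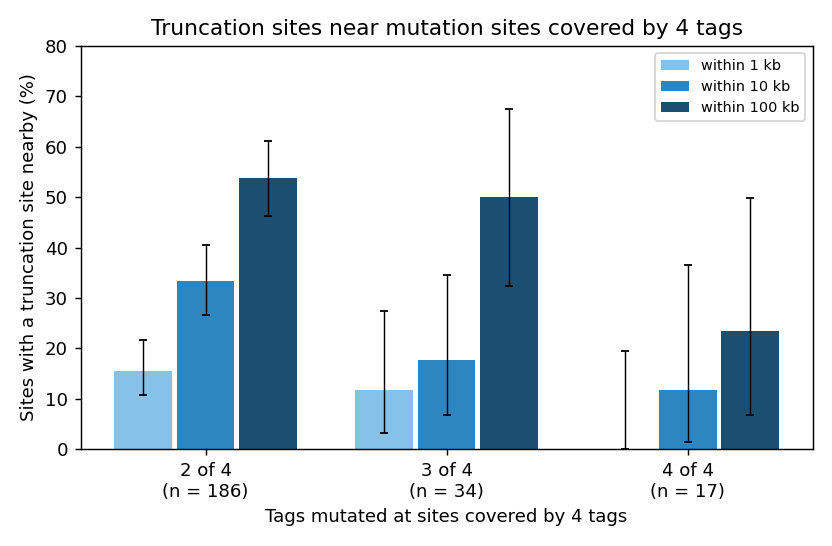
Share of mutation sites covered by 4 tags (y axis, percent) with a truncation site on their strand within 1, 10 or 100 kb (light to dark bars), by the number of tags mutated (x axis); error bars are exact Clopper-Pearson 95% intervals. At 100 kb the bars stand at 53.8%, 50% and 23.5% for 2, 3 and 4 mutated tags.

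The 462 sites covered by 2 tags lay nearer to truncation sites than the deeper fully mutated sites did. Their median distance was 162 kb, against 380 kb. A truncation site lay within 10 kb of 14.3% of them (11.2 to 17.8%) and within 100 kb of 40.5% (36.0 to 45.1%). Partly mutated sites covered by 3 tags, which likewise have 2 mutated tags, had one within 10 kb in 22.7% and within 100 kb in 46.3% of 242 cases. These groups differ in depth, so the values are set side by side without a test.

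Fully mutated sites were spread over all autosomes and chromosome X. Chromosome 1 held the most (44), followed by chromosomes 2 (42), 12 (36), 7 (35) and 19 (34), and chromosome 21 the fewest among those that had any (5). Chromosome Y had 0 among 5 mutation sites (95% interval 0 to 52.2%) and the mitochondrial sequence 0 among 2. As a share of all mutation sites, full mutation ran from 14.3% on chromosome 21 (4.81 to 30.3%) and 16.8% on chromosome 11 (10.4 to 25.01%) to 39.3% on chromosome 13 (21.5 to 59.4%). At chromosome 11 the interval ended below the 26.8% of the whole list, but these shares are not matched for depth.

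At equal depth, no chromosome was shown to differ from the others in its share of fully mutated sites. Of the 25 sequences tested by the exact test over k from 3 to 9, 0 passed at an adjusted p under 0.05, a called share of 0%, and 0 had an unadjusted p under 0.05. The lowest was chromosome 10, with 4 fully and 30 partly mutated sites (odds ratio 2.79, exact p = 0.0832, adjusted p = 0.975). Chromosome 11 had 1 and 54 (odds ratio 0.256, exact p = 0.238). With 79 fully mutated sites over 25 sequences, the test can show only large differences. No difference between the strands was detectable either: 36 of 79 fully mutated sites (45.6%, 34.3 to 57.2%) and 52.0% of partly mutated sites were on the plus strand (odds ratio 0.724, 0.438 to 1.19, exact p = 0.189, adjusted p = 0.473). Of all 542, 275 were on the plus strand and 267 on the minus strand.

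**Figure D5:**
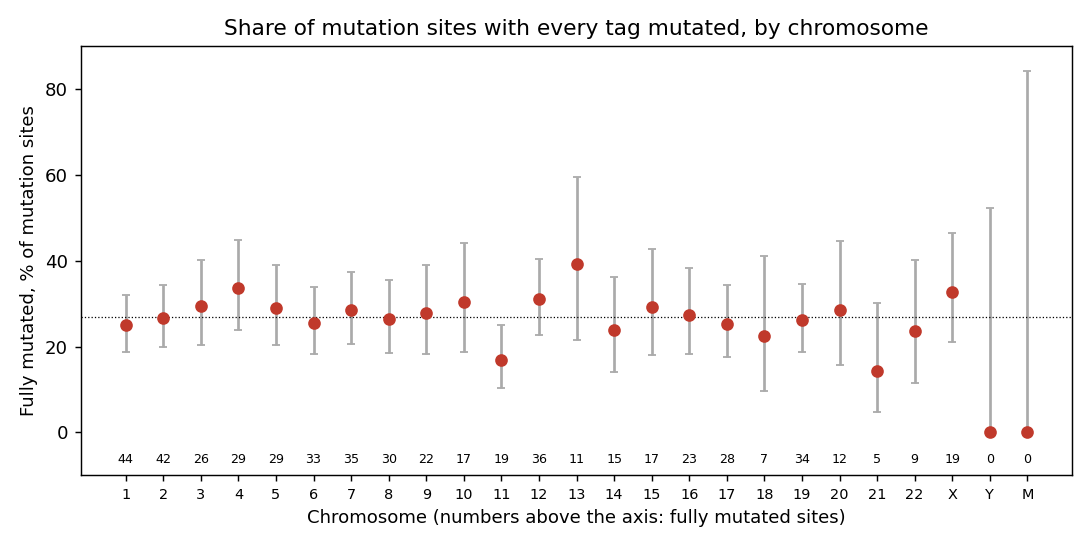
Fully mutated sites as a share of all mutation sites (y axis, percent) on each chromosome sequence (x axis), with exact Clopper-Pearson 95% intervals and the number of fully mutated sites above the axis; the dotted line is the 26.8% of the whole list. Autosomes lie between 14.3% and 39.3%, and the interval of chromosome 11 ends below the line.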

How the data were processed

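Per the submitters' processing notes, the tools were cutadapt and BWA 0.7 and the build was hg19. Alignment settings, duplicate removal and site thresholds are not stated in the labels. Tag counts per site were deposited by the authors as a single list combined over 2 replicates. The tag count equalled m in all 2023 mutation sites. The total tags per library are unknown. The abbreviations k and m follow the naming of the CTK toolkit.

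Positions are 1-based, and distances join interval midpoints on 1 strand. Fully and partly mutated sites were compared in strata of equal k (3 to 9) by an exact Cochran-Mantel-Haenszel test with conditional odds ratios, written in Python 3.11.15 with scipy 1.17.1 and tested on simulated data. Weighted shares average partly mutated sites over the fully mutated sites' depths. Intervals are exact 95% ones and cover counting error among listed sites only. Sites of 1 list, which may share tags or transcripts, are not biological replicates.

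The members and lists were chosen with earlier results of these data known. Sites are named by position: the 10 with the most tags (ties in chromosome order), every one sharing an interval with another row, and any on the mitochondrial sequence. The rule also names the 5 loci with the most fully mutated sites, but each locus held 1, so that part singled out none. The annotation at hand is for GRCh38 and was not used.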

Additional observations from a re-analysis of the deposited data

How the results depend on the processing

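No paired analysis was possible because both replicates belong to a single group and are combined in the list, and for the same reason no replicate could be left out. Values are odds ratios at equal depth, with adjusted p as in the report. For a truncation site within 50 nt (0.982), the odds ratio turned to 2.15 at 3 covering tags, 1.05 without the 10 loci with the most sites and 1.03 with 1 site per locus. None of these passed the test. It became 0.364 within 10 kb and 0.342 within 100 kb, which passed. For another mutation site within 50 nt (0), it became 0.350 within 10 kb and passed (exact test, adjusted p = 0.0476 over 5 tests, but 0.0582 over 46). Standing alone in a locus (2.98) did not pass in the main comparison. It did not pass either at 3 tags (1.43), with 1 site per locus (2.48), without the 10 largest loci (2.86) or at gaps of 500 nt (2.67). It passed at 4 to 9 tags (9.28). At the same 4 to 9 tags it passed with a lower odds ratio (3.20) when sites with all tags but 1 mutated were counted as members. It also passed at gaps of 10 kb (2.96), there also without the 10 largest loci (2.90) and with 1 site per locus of 1000 nt gaps (2.71). In that last setting, sites that share a locus only at gaps of 10 kb were all kept. At gaps of 10 kb it passed at 4 to 9 tags too (6.92), and at these depths with the wider membership (3.93). At gaps of 10 kb it did not pass at 3 tags (1.67). A truncation site within 100 kb kept its call in 5 of 6 alternatives, and did not pass at 3 tags (0.563). The 10 kb and 100 kb windows, and each alternative at 10 kb gaps other than the gap itself, were chosen after seeing the data. For a fully mutated site within 1000 nt, the wider membership also changed the neighbours sought. These were then its own members at 4 to 9 tags, not all 542 fully mutated sites. None lay within 1000 nt of a compared site in either group, so there was no value. The causes of these changes were not tested. Depth limits all of this: 85.2% of the fully mutated sites rest on 2 tags and cannot be compared at equal depth.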
